A study of Mus musculus with 8 samples.

Results

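RNA polymerase III (Pol III), the nuclear enzyme that transcribes tRNA genes, 5S ribosomal RNA and other short untranslated RNAs, was followed through 9 genes in mouse germinal centre (GC) B cells that were sorted by their MYC level. The 9 genes are 7 genes of Pol III subunits (Polr3a, Polr3b, Polr3d, Polr3e, Polr3f, Polr3g and Polr3k), the initiation factor gene Brf1 and the repressor gene Maf1. They were taken as the probe sets whose only platform gene symbol is one of these names. This gave 26 of the 45056 probe sets on the array, and 24 of the 26 passed a filter on dim signal. All 9 genes had at least 1 probe set above the filter and so were among the 11754 genes tested.

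All samples came from spleens of 8-week-old GFPMYC/C57BL6 mice, which carry a GFP-MYC fusion knocked in at the Myc locus, 12 days after injection of sheep red blood cells. B cells were enriched on magnetic beads, GC B cells were gated as PNAhi/CD95hi, and cells with and without GFP were collected as MYC+ and MYC- samples. There were 4 samples of each kind, and each sample description names its partner, which gives 4 pairs. The protocol describes the sort as made for each mouse, while the design text speaks of pools, so how many animals stand behind a pair is not settled. The p-values rest on these 4 pairs, and not on a known number of animals. In the limma fits, the spread of a gene's differences within pairs was combined with a prior spread fitted over all genes. The labels name no difference between MYC+ and MYC- samples other than the GFP gate, so the MYC- cells carry the fusion gene too. The comparison asks how GC B cells that hold the GFP-MYC protein differ from GC B cells that do not.

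Pol III is built on the largest subunits Polr3a and Polr3b, which form its active centre. Polr3d and Polr3e form a pair that acts in promoter opening and termination, Polr3k acts in RNA cleavage and termination, and Polr3c, Polr3f and Polr3g (or its paralog Polr3gl) form an initiation trimer. TFIIIB, made of Brf1 (or Brf2), Bdp1 and the TATA-binding protein Tbp, brings the enzyme to its genes, and TFIIIC finds most of those genes by their internal promoters. Maf1 binds Pol III and represses it when nutrients or growth signals are low, and the mTORC1 kinase releases the enzyme by phosphorylating Maf1. MYC is known to raise Pol III transcription by binding TFIIIB, and dividing B cells need tRNA and 5S RNA for protein synthesis.

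MYC binds DNA with its partner MAX at the E-box, whose letters read the same on both strands, so promoters were searched for the canonical E-box CACGTG and for the variant CACGCG on either strand. The RefSeq promoter table (build GRCm38.p6) held 5 of the 9 genes (Polr3b, Polr3e, Polr3f, Polr3g and Polr3k), with 250 bases before and 50 after each start. The canonical E-box stood in 1 of the 5, Polr3e, where its first base is base 6 of the transcript, and in 7.15% of all 32851 promoters of the same length. The variant stood in 2 of the 5, Polr3k and Polr3g, and in 9.27% of all promoters. Of 11 other subunits of Pol III, 8 were in the table, of which 3 held the canonical E-box (Polr3c, Polr3gl and Polr2h) and 5 the variant. In Polr3gl, the paralog of Polr3g, it begins 194 bases before the start. The windows of 2 genes that were called higher and of Polr3gl are shown with each match in capitals. The Polr3e window is chr7:120917658-120917792 on the plus strand, that of Polr3k is chr2:181864210-181864374 on the plus strand, and that of Polr3gl is chr3:96594282-96594401 on the minus strand.
Polr3e: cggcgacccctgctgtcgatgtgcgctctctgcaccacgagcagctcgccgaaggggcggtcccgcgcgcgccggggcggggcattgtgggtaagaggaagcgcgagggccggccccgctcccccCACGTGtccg
Polr3k: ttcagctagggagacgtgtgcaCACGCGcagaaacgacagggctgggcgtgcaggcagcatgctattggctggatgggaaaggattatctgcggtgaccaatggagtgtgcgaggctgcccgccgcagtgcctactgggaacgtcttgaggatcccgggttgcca
Polr3gl: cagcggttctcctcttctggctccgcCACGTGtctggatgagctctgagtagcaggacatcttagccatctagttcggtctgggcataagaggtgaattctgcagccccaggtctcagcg
A match describes these letters and shows no binding. Of the 4 genes with the canonical E-box, Polr3e and Polr2h were called higher in MYC+ samples and Polr3c and Polr3gl were not called. Over all genes, 11.2% were called higher. A second promoter of Polr2h held no match. Of the tested genes whose promoter lacked the canonical E-box, Polr3k, Polr1c, Polr2e and Polr2f were called higher too. Polr3f was called lower, and Polr3b, Polr3g and Polr1d were not called.

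The deposited values are array signals scaled to nearly the same trimmed mean, from 496.7 to 497.8, so every difference is relative to the rest of an array. Between 34.7% and 42.6% of probe sets had a signal above 100. Myc, on which the cells were sorted, had a signal of 33.3 to 156 in MYC- and of 361 to 932 in MYC+ samples, which checks the labels. The B cell markers Cd22, Cd74, Cd79a, Cd79b and Ms4a1 together had a signal of 49100 to 60940 in MYC- and 43120 to 54970 in MYC+ samples, and the GC markers Bcl6, Fas, Gcsam, Mef2b and S1pr2 had 22490 to 29610 and 18120 to 21540. Of these 10 markers, Cd22 and Fas were called lower in MYC+ samples. Of 12 myeloid markers, 10 passed the filter, 7 were higher and 1, Apoe, was lower in MYC+ samples. Cd68 (log2 difference 0.51) and Adgre1 (0.63) were not called. The summed signal of the myeloid list was 789 to 1715 in MYC- and 1373 to 9769 in MYC+ samples. Csf1r, C1qa and C1qc had geometric means of 5.42, 6.15 and 3.33 in MYC- and of 458, 207 and 115 in MYC+ samples. Their MYC- means were under the filter level of 18.7, so these 3 passed only through the MYC+ samples. Of 5 plasma cell markers tested, Sdc1 and Irf4 were called higher. Jchain (log2 difference 0.02), Xbp1 (0.35) and Prdm1 (0.54) were not called, and Tnfrsf17, under the filter, was at -2.38. The summed signal of the list was 15930 to 28010 in MYC- and 23950 to 30600 in MYC+ samples, so the groups overlapped. Of 6 T cell markers measured, 4 were under the filter, as were 3 of 4 erythroid markers. The 3′ to 5′ signal ratio of the Gapdh control was 1.39 to 1.57 in MYC- and 1.35 to 1.47 in MYC+ samples, and that of the actin control was 1.43 to 2.24 and 1.81 to 2.24. The MYC+ array of pair 4 lay farthest out on the first principal component (89.95, where the other MYC+ arrays lay between 24.5 and 31.1) and had the lowest median signal, 28.2. The MYC- array of pair 4 stood apart too, at -26.4 on that component, where the other MYC- arrays lay between -53.7 and -44.9. It had the lowest median signal of the MYC- arrays, 41.45, and an actin ratio of 2.24, against 1.43 to 1.74 in the others. Results are therefore given with and without pair 4 where that changes them.

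Among the 8 genes of subunits and Brf1, 3 were higher in MYC+ samples (Polr3d, Polr3e and Polr3k) and 1, Polr3f, was lower by the probe set that stands for it. Over all genes, 11.2% were called higher and 11.5% lower by the same fit (limma, adjusted p under 0.05). At an unadjusted p under 0.05, 1996 of the 11754 genes were higher and 2257 lower. Maf1 was not called. The median difference of the 8 was 0.40 on the log2 scale, and the median of all genes was -0.06. With centring on the median, which raised the median of all genes by 0.44, 4 of the 8 were called higher and 0 lower (1 lower at an unadjusted p under 0.05), where 27.3% of all genes were called higher and 4.65% lower. After quantile normalization 4 were higher and 1 lower, where 15.2% and 11.3% of all genes were. The fourth was Polr3g in both. Without pair 1 no member was called by limma (3 higher and 1 lower at an unadjusted p under 0.05), and without pair 2 none was called higher (3 unadjusted), while over all genes these fits called 403 and 455 genes higher. In bulk samples, fewer cells of a type and less RNA per cell cannot be told apart. Myeloid markers, and of the plasma cell markers Sdc1 and Irf4, moved in the same samples, and their part in these differences was not tested.

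**Figure D1:**
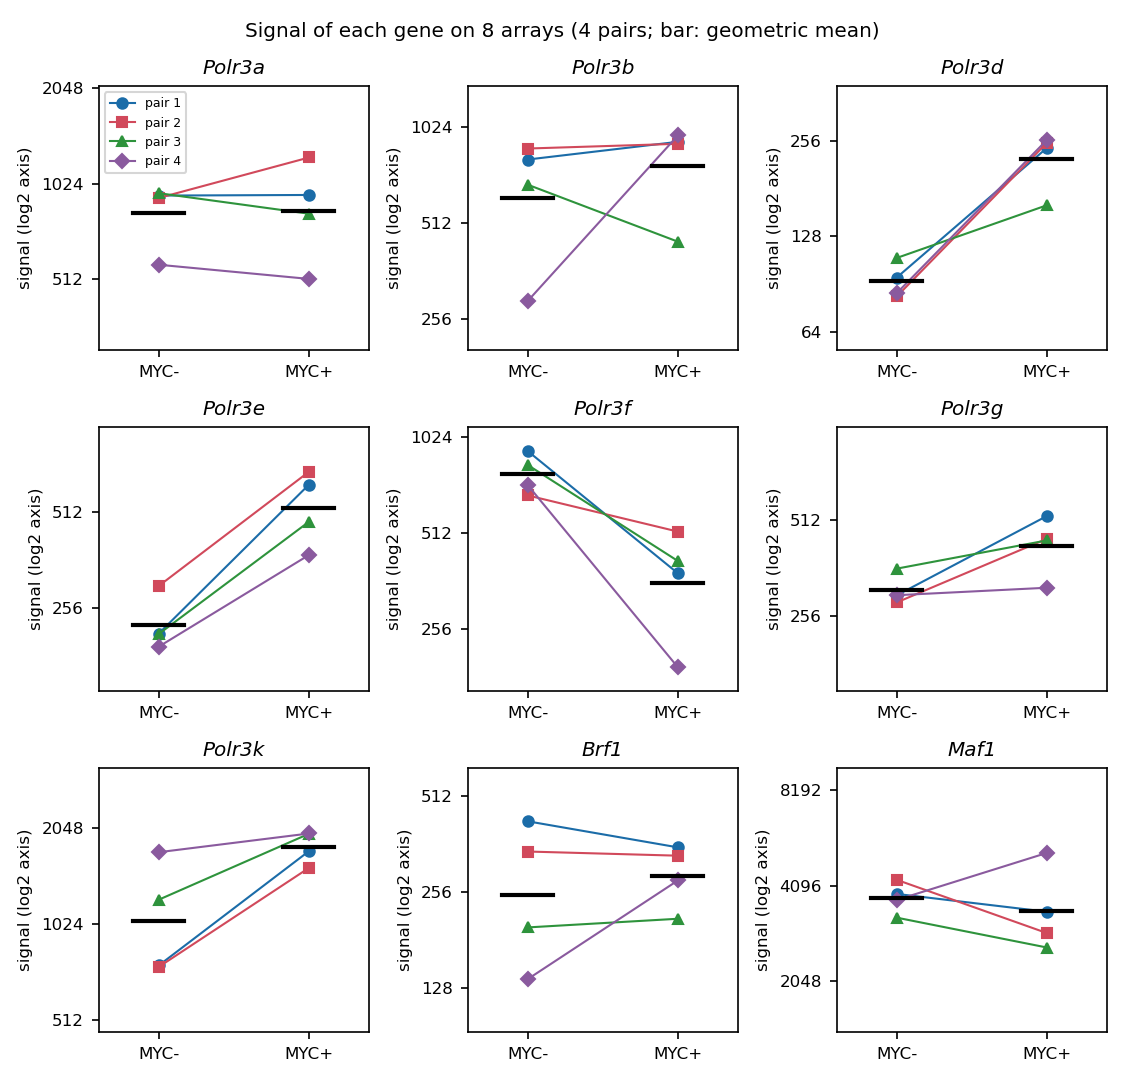
Signal of the 9 genes on each of the 8 arrays, on log2 axes that differ between panels. Points joined by a line are the MYC- and MYC+ sample of a pair, and black bars are geometric means. The MYC+ signals of Polr3d and Polr3e all lie above their MYC- signals, those of Polr3f all lie below, and Maf1 overlaps.

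Among the 9 genes, the largest differences above 0 were those of Polr3d and its partner Polr3e. Polr3e had a signal of 212, 299, 211 and 193 in the MYC- samples of pairs 1 to 4 and of 622, 683, 476 and 374 in the MYC+ samples. The groups did not overlap, and each MYC+ sample was above its partner. Of the 9 genes, 2 had groups that did not overlap in the higher and 1 in the lower direction, beside 11.1% and 10.9% of all genes. Polr3e was 2.33-fold higher (log2 difference 1.22, SE 0.24, n = 4 pairs, limma adjusted p = 0.0089). Its difference was between 0.96 and 1.55 in the 4 pairs.

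Polr3d had a signal of 95.1, 82.9, 109.6 and 85.0 in the MYC- and 243, 252, 160.4 and 257 in the MYC+ samples. The groups did not overlap here either, and the MYC+ sample of pair 3 was the lowest of its group. Polr3d was 2.42-fold higher (log2 difference 1.28, SE 0.32, n = 4 pairs, limma adjusted p = 0.023). Its difference was 1.35, 1.60, 0.55 and 1.60 in pairs 1 to 4, where the summed myeloid signal went from 1715 to 9769, 1533 to 3861, 965 to 1373 and 789 to 3259. The calls of Polr3d and Polr3e ended without pair 1 (adjusted p = 0.11 and 0.069) and without pair 2 (0.13 and 0.067). Over 12 alternatives, adjusted p lay between 0.0025 and 0.13 for Polr3d and between 0.00076 and 0.069 for Polr3e.

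The other probe sets of these partners had differences of the same sign. The second of Polr3d had a signal between 2.54 and 41.5 in MYC- and between 94.6 and 149 in MYC+ samples. Its geometric mean in MYC- samples, 11.0, was under the filter level of 18.7, so it passed only through the MYC+ samples, and its call adds no support for Polr3d. The second of Polr3e was at 0.64 (adjusted p = 0.26 in a fit over 27022 probe sets), with signals of 56.1 to 100.4 in MYC- and 81.3 to 195 in MYC+ samples. With the mean over kept probe sets Polr3e was at 0.93 and called (adjusted p = 0.034), while the mean for Polr3d, 2.41, takes in the probe set that was under the filter level in MYC- samples.

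Polr3k is the small subunit that acts in RNA cleavage and termination. Its signal was 759.6, 752, 1222 and 1722 in the MYC- and 1735, 1537, 1967 and 1971 in the MYC+ samples. The MYC- sample of pair 4 reached the range of the MYC+ samples, so the groups overlapped. Polr3k was 1.71-fold higher (log2 difference 0.78, SE 0.20, n = 4 pairs, limma adjusted p = 0.026), with the same sign in 4 of 4 pairs, from 0.20 in pair 4 to 1.19 in pair 1. It was not called without the pair as a block (adjusted p = 0.068), without pair 1, 2 or 3 (0.15, 0.15 and 0.054) or without the intensity trend (0.078). Of its 6 probe sets 4 passed the filter, and all 4 had differences above 0, but only 2 were called. The 2 that were not were at 0.09 and 0.14. The mean over the 4 was 0.42, with adjusted p = 0.16 (from 0.00060 to 0.16 over 12 alternatives).

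The active centre subunits were not called. Polr3a, the largest subunit, had a signal of 939, 923, 955 and 569.6 in the MYC- and 943, 1236, 824 and 514 in the MYC+ samples. Its log2 difference was 0.02 (95% interval -0.43 to 0.46, adjusted p = 0.96), an interval that leaves out rises of the size fitted for Polr3d and Polr3e. Both arrays of pair 4 were the lowest of their groups. The difference of Polr3a turned below 0 without pair 2 (-0.12) and with the mean over probe sets (-0.71), where a probe set at -2.37 enters whose MYC+ geometric mean, 10.4, was under the filter level. The remaining probe set of Polr3a was at 0.24 and not called (limma adjusted p = 0.56 in the fit over 27022 probe sets).

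Polr3b, the second-largest subunit, had a signal of 811, 878, 676 and 292 in the MYC- and 922, 909, 448 and 965 in the MYC+ samples. Its log2 difference of 0.34 (95% interval -0.43 to 1.12, adjusted p = 0.52) rested on pair 4, at 1.73, while pairs 1 to 3 were at 0.18, 0.05 and -0.59. Without pair 4 it was at -0.12. A second probe set of Polr3b had the same pattern, with 1.88 in pair 4 and -0.89 in pair 3.

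The probe sets of Polr3f, a subunit of the initiation trimer, went both ways, as did those of Polr3a and Polr3b. Its brightest probe set had a signal of 925, 671, 836 and 723 in the MYC- and 382, 517, 418 and 194 in the MYC+ samples. Every MYC+ sample was below every MYC- sample, and the difference was -1.14 on the log2 scale (SE 0.27, n = 4 pairs, limma adjusted p = 0.019). The other 4 probe sets were at -0.78, -0.02, 0.51 and -2.06 (the last with a MYC+ geometric mean of 9.98, under the filter level), and none of them was called in the fit over 27022 probe sets, where 7.8% were called higher and 13.6% lower. The probe set at 0.51 was above 0 in all 4 pairs, with a signal of 86.5 to 119 in MYC- and 96.1 to 232 in MYC+ samples. With the mean over the 5 probe sets, Polr3f was at -0.70 and not called (adjusted p = 0.13). It was also not called after median centring (-0.70, adjusted p = 0.063), with a floor of 32 (0.051), without the trend (0.055) or without pair 1 (0.11), and its adjusted p lay between 0.0070 and 0.13 over 12 alternatives. Which part of the transcript each probe set reads was not determined here, so a direction for Polr3f as a gene is not given.

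**Figure D2:**
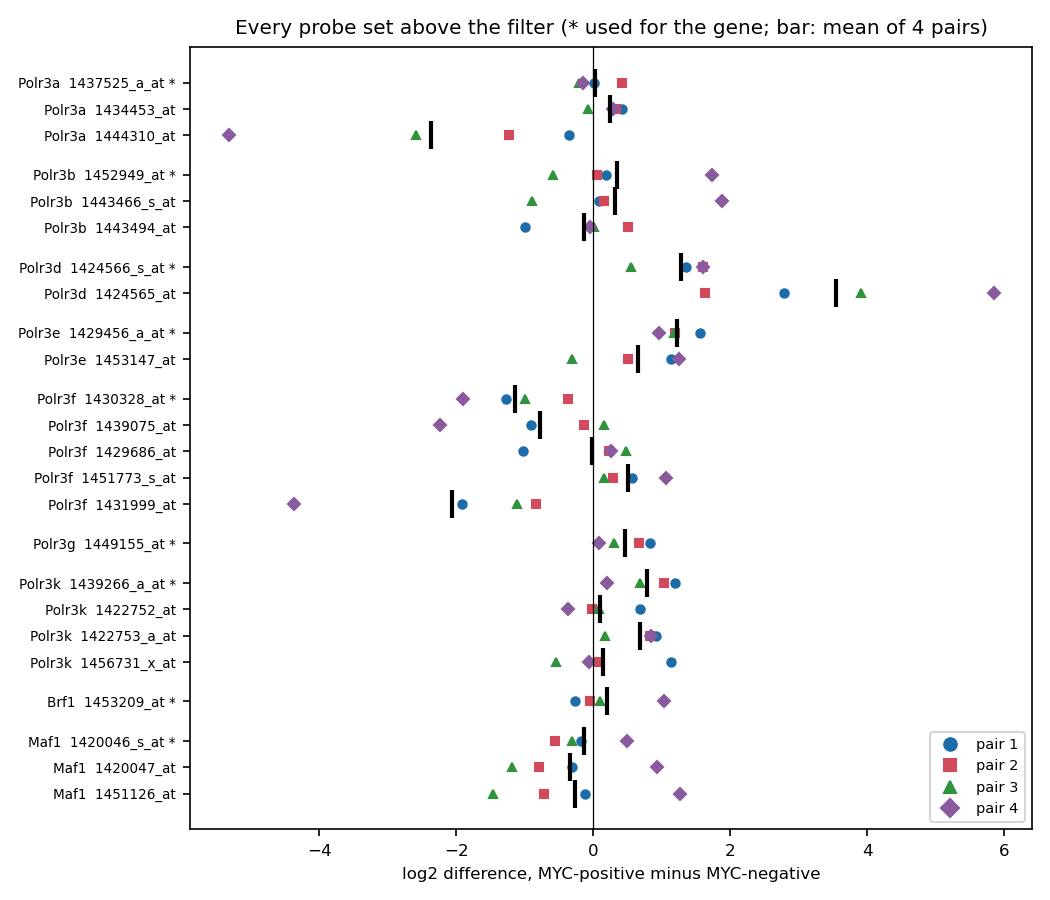
Log2 difference between the MYC+ and MYC- sample of each pair for the 24 probe sets above the filter, with the mean of the 4 pairs as a black bar. Stars mark the probe set used for the gene. The 2 probe sets of Polr3d and the 4 of Polr3k have means above 0, those of Polr3f run from -2.06 to 0.51, and the 3 of Maf1 share the pattern of pair 4 standing above 0.

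Polr3g and Polr3gl are alternative subunits of the trimer, of which Polr3g is known from stem cells and dividing or transformed cells and Polr3gl from most tissues. Polr3g had a signal of 297, 282, 359.7 and 297 in the MYC- and 526, 446, 441 and 313 in the MYC+ samples. It was above its partner in 4 of 4 pairs, with a log2 difference of 0.47 (95% interval -0.09 to 1.03, adjusted p = 0.21), and the groups overlapped through pair 4. After quantile normalization it was at 0.75 (adjusted p = 0.0497) and after median centring at 0.91 (0.018), so that its call depends on the scaling. Adjusted p lay between 0.018 and 0.51 over 12 alternatives. Polr3gl had a signal of 275, 189, 233 and 111 in the MYC- and 144, 51.6, 44.8 and 135 in the MYC+ samples. Pairs 1 to 3 were at -0.93, -1.87 and -2.38 and pair 4 at 0.28, with a fitted difference of -1.22 (95% interval -2.25 to -0.20, adjusted p = 0.085). Without pair 4 it was at -1.73 and was called lower (adjusted p = 0.0026, from 0.0026 to 0.29 over 12 alternatives).

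The ratio of Polr3g to Polr3gl within an array does not depend on how the array was scaled by a factor. It was higher in the MYC+ sample by 1.76, 2.53 and 2.67 on the log2 scale in pairs 1 to 3 and by -0.20 in pair 4, with a mean of 1.69 (SD 1.33, n = 4 pairs). The exact sign-flip test, two-sided, gave p = 0.25, where 4 pairs cannot give less than 0.125. The test could therefore not pass 0.05 in this design, and 3 of 4 pairs had the same sign.

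Brf1, the TFIIIB subunit that recruits Pol III to tRNA and 5S genes, was not called. Its signal was 428, 344, 199 and 137 in the MYC- and 354, 334, 212 and 279 in the MYC+ samples. The spread within the MYC- group was wider than the difference in any pair, and the fitted log2 difference was 0.20 (95% interval -0.47 to 0.87, adjusted p = 0.67). Pair 4 was at 1.03, and without that pair Brf1 was at -0.075.

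Maf1, the repressor, was bright on all arrays, with a signal of 3855, 4268, 3247 and 3690.35 in the MYC- and 3389, 2905, 2617 and 5185 in the MYC+ samples. The MYC+ signals of pairs 1 to 3 were below those of their partners, and that of pair 4 was above all other arrays. The log2 difference was -0.14 (95% interval -0.56 to 0.27, limma adjusted p = 0.63), and pairs 1 to 4 were at -0.19, -0.56, -0.31 and 0.49. Its other 2 probe sets, at -0.34 and -0.26, had the same signs pair by pair, with 0.92 and 1.26 in pair 4. Without pair 4 Maf1 was at -0.35 (adjusted p = 0.078), after quantile normalization at -0.25 and after median centring at 0.30 (adjusted p = 0.33), so no direction can be given. Adjusted p lay between 0.078 and 0.995 over 12 alternatives.

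Set against Maf1 on the same arrays, Polr3d and Polr3e had log2 differences above that of Maf1 in every pair. The difference of Polr3d exceeded that of Maf1 by 1.54, 2.16, 0.86 and 1.11 in pairs 1 to 4 (mean 1.42, SD 0.57) and that of Polr3e by 1.74, 1.75, 1.48 and 0.465 (mean 1.36, SD 0.61). Each had p = 0.125 in the exact two-sided sign-flip test over 4 pairs, the smallest that this test can give, so none of the 8 contrasts made could pass 0.05. Polr3k was above Maf1 in pairs 1 to 3 (1.38, 1.59 and 1.00) and below it in pair 4 (-0.30), and Polr3g was so too (1.01, 1.22 and 0.61 against -0.41). Polr3f was below Maf1 in 3 of 4 pairs, with a mean of -0.998 (SD 1.07), and Polr3a (mean 0.16), Polr3b (0.48) and Brf1 (0.34) were above it in 3 of 4. The mean difference of the 8 genes minus that of Maf1 was 0.63, 1.12, 0.43 and -0.05 in pairs 1 to 4, with a mean of 0.535 (SD 0.49). Median centring does not change these contrasts, and with quantile normalization the mean was 0.86.

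**Figure D3:**
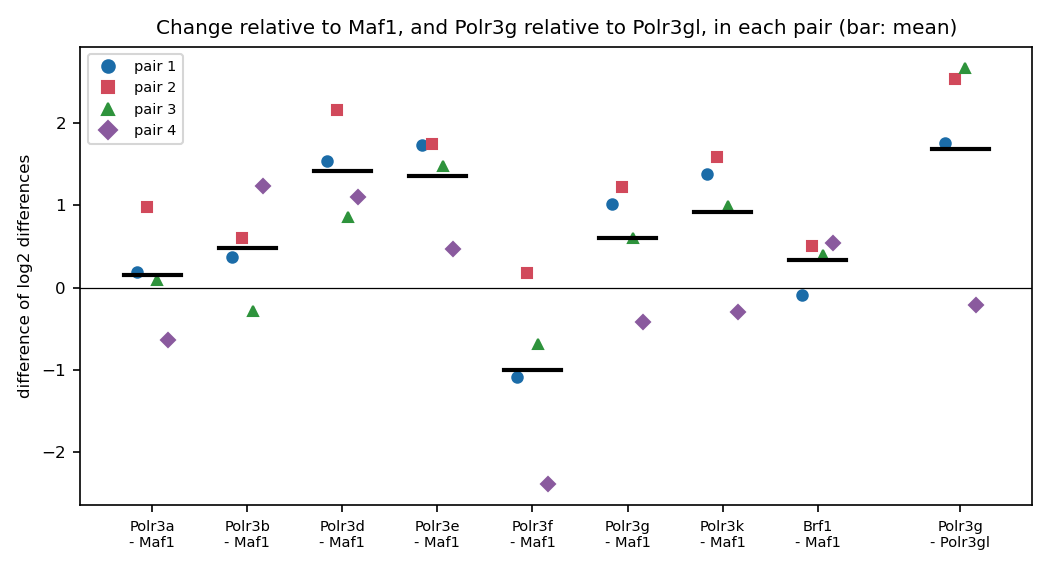
Change of each gene relative to Maf1, and of Polr3g relative to Polr3gl, as the difference between log2 differences in each of the 4 pairs, with the mean as a black bar. Polr3d and Polr3e lie above 0 in all 4 pairs, and pair 4 is below 0 for Polr3a, Polr3f, Polr3g, Polr3k and the ratio of Polr3g to Polr3gl.

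**Figure D4:**
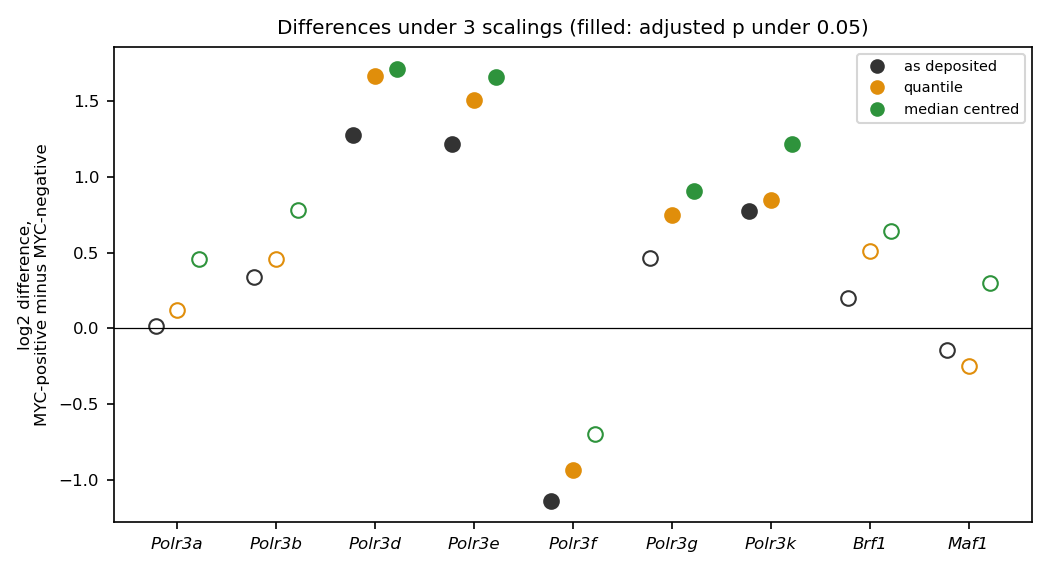
Log2 difference (MYC+ minus MYC-) of the 9 genes with signals as deposited, after quantile normalization and after median centring, with filled points at an adjusted p under 0.05. Polr3d, Polr3e and Polr3k are filled under all 3 scalings, Polr3g under 2, Polr3f is open after median centring, and Maf1 lies below 0 under 2 scalings and above 0 after median centring.

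Outside these 9 genes, 55 genes of the Pol III pathway were listed, of which 47 were tested. Of the 47, 16 were called higher and 2 lower, beside the 11.2% and 11.5% of all genes, and their median difference was 0.38. After median centring 27 were higher and 0 lower (0 lower at an unadjusted p under 0.05 too), beside 27.3% and 4.65% of all genes. Without pair 1, 5 were called higher, and without pair 2, 7 were, beside 3.43% and 3.87% of all genes. The myeloid markers, with a summed signal of 789 to 1715 in MYC- and 1373 to 9769 in MYC+ samples, moved in the same comparison, and their part was not tested.

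Subunits that Pol III shares with other polymerases were called higher for 4 of 5 tested and lower for 0, beside 11.2% and 11.5% of all genes. At an unadjusted p under 0.05, 0 were lower as well, beside 2257 of all 11754 genes. Polr1c, shared with Pol I, had a signal of 2097 to 3108 in MYC- and 4573 to 5425 in MYC+ samples and was 0.86 higher (SE 0.14, adjusted p = 0.0046). Polr2h, shared by all 3 nuclear polymerases, was 0.94 higher (SE 0.15, adjusted p = 0.0041), with 941 to 1413 against 1757 to 2835. Polr2f (1.27) and Polr2e (1.18) were higher too, with no overlap between groups. A second probe set of Polr2e was at -2.64, with a MYC+ geometric mean of 12.0 that was under the filter level, so that the mean over its probe sets was at -0.73 and not called (adjusted p = 0.19, from 0.0020 to 0.19 over 12 alternatives). Polr1d, the partner of Polr1c, was at 0.30 and not called. Without pair 1, 1 of the 5 was called higher, and without pair 2, 2 were, beside 3.43% and 3.87% of all genes. Without pair 1 the calls of Polr1c, Polr2f and Polr2e ended (adjusted p = 0.052, 0.057 and 0.10), and without pair 2 those of Polr2f and Polr2e did (0.078 and 0.10). Polr2e was also not called with a floor of 32 or without the trend (0.069 and 0.078). Of the other subunits of Pol III itself, Polr3c (0.13), Crcp (-0.02) and Polr3gl were tested, and limma called 0 (0 higher and 1 lower, Polr3gl, at an unadjusted p under 0.05).

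The counts for transcription factors of Pol III depended on the scaling. With signals as deposited, 11.2% of all genes were called higher and 11.5% lower, and 1996 and 2257 of 11754 were at an unadjusted p under 0.05. Of the other 3 TFIIIB genes limma called 0 (1 higher and 0 lower unadjusted). Bdp1 had a signal of 5256, 5739, 5285 and 6902 in the MYC- and 3884, 5486, 7637 and 3761 in the MYC+ samples, with a log2 difference of -0.21 (adjusted p = 0.51) that was 0.23 after median centring and 0.0099 without pair 4. Of 7 genes of TFIIIC and TFIIIA, 1 was called higher and 0 lower (2 and 0 unadjusted). It was Gtf3c6, a TFIIIC subunit, with 1799 to 1953 in MYC- and 2555 to 5078 in MYC+ samples (log2 difference 0.79, SE 0.18, adjusted p = 0.017). Its dim second probe set was at -0.20, and with the mean of both it was at 0.30 and not called (adjusted p = 0.32, from 0.0014 to 0.32 over 12 alternatives). Its call also ended without pair 1, without pair 2 and without the trend (0.10, 0.066 and 0.072). Of 5 genes of SNAPc, the complex that serves U6-type promoters, limma called 0 (0 higher and 1 lower unadjusted). The probe sets of Snapc3 went both ways. The one that stands for the gene was at 0.47, and the others were at -1.72, -0.84 and -0.10. In the limma fit over 27022 probe sets, where 13.6% were called lower, the one at -1.72 was called lower (adjusted p = 0.0079). After median centring, where 27.3% of all genes were called higher, 1 of the 3 TFIIIB genes, 3 of the 7 of TFIIIC and TFIIIA and 3 of the 5 of SNAPc were called higher. Without pair 4, where 14.8% of all genes were called higher, 1 of TFIIIB, 2 of TFIIIC and TFIIIA and 1 of SNAPc were.

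**Figure D5:**
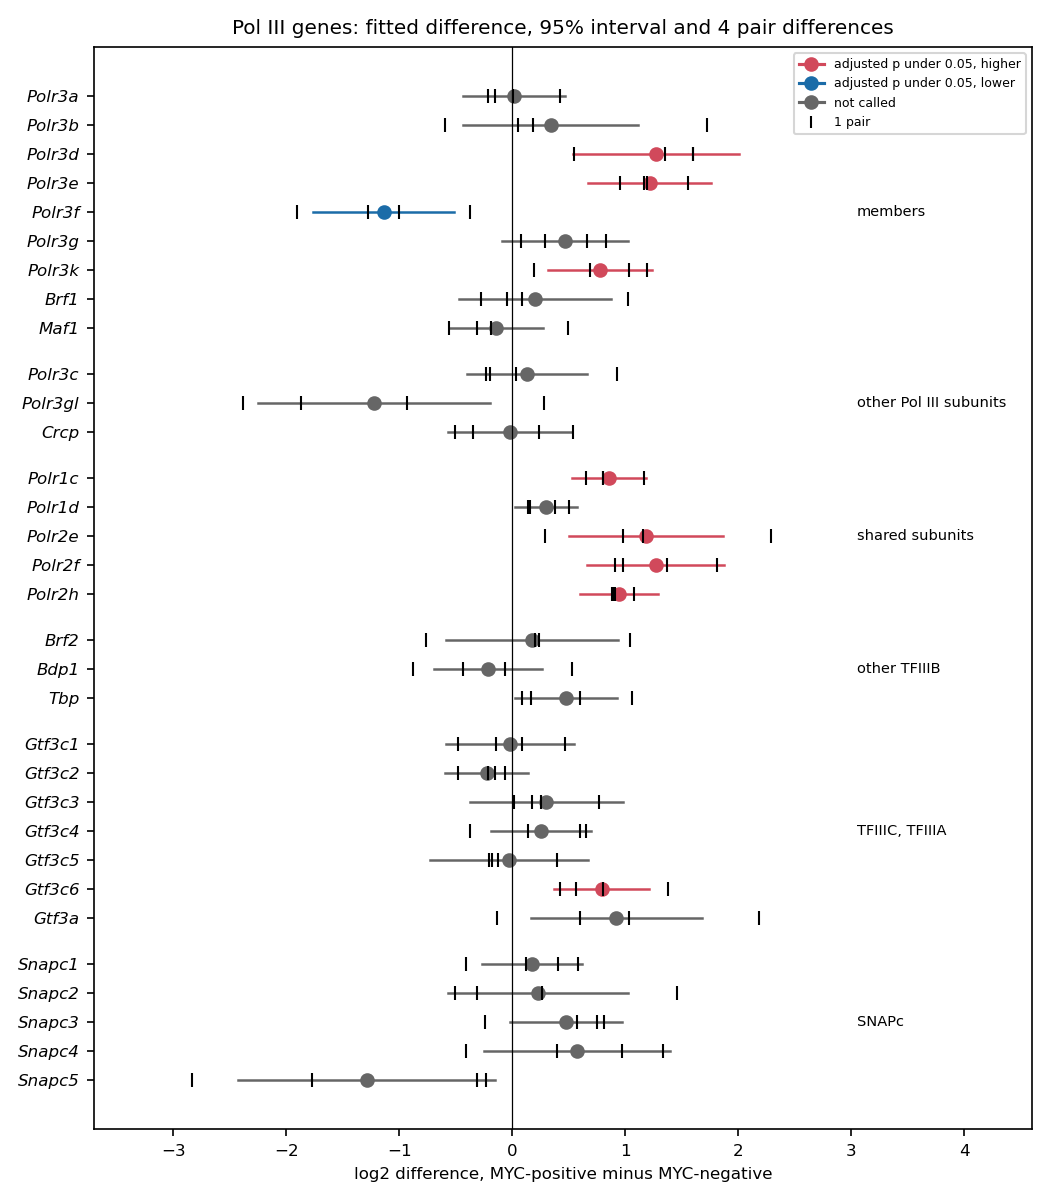
Fitted log2 difference (MYC+ minus MYC-) with its 95% interval, not adjusted for multiple tests, for the 9 genes and 23 further genes of Pol III and its transcription factors, with the 4 pair differences as ticks. Of the shared subunits 4 of 5 are called higher, and of TFIIIB, TFIIIC, TFIIIA and SNAPc only Gtf3c6 is with signals as deposited, though more are after median centring.

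Genes that process and export the products of Pol III were called higher for 11 of 16 tested and lower for 0 (0 unadjusted too), with a median difference of 0.88, beside 11.2% and 11.5% of all genes. After quantile normalization 12 and after median centring 13 were higher, where 15.2% and 27.3% of all genes were. Without pair 1, 4 were called higher, and without pair 2, 5 were, beside 3.43% and 3.87% of all genes. Of the 11, Rpp14, Rpp25, Rpp30, Rpp40, Pop1, Pop4 and Pop5 encode subunits of RNase P and RNase MRP, which cut precursors of tRNA and ribosomal RNA. The others were Ssb, which encodes the La protein that binds the ends of new Pol III transcripts, Elac2, which trims tRNA 3′ ends, Trnt1, which adds CCA, and Xpot, which exports tRNA. Rpp40 had a signal of 123, 143, 235 and 224 in the MYC- and 644, 731, 836 and 756 in the MYC+ samples, with no overlap, and was 4.23-fold higher (log2 difference 2.08, SE 0.25, n = 4 pairs, limma adjusted p = 0.0012). The second probe set of Rpp40 was at 1.91. Those of Rpp30 (-0.44) and Pop1 (-0.19) were below 0 and not called. The further probe sets of Ssb, Elac2, Rpp14, Trnt1 and Xpot that passed the filter were all above 0. With the mean over kept probe sets, 9 of the 16 genes were called higher, beside 9.93% of all genes. Pop5 was 1.35 higher (adjusted p = 0.0018), with 965 to 1226 in MYC- and 1884 to 3707 in MYC+ samples. Rpp25 was 1.63 higher (adjusted p = 0.029) but dim, with 13.9 to 43.0 against 48.7 to 87.1, and was not called without the filter, without pair 1 or without pair 2 (adjusted p = 0.068, 0.10 and 0.16, from 0.0048 to 0.16 over 11 alternatives).

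The list of kinases that act on Maf1 or TFIIIB and of repressors of TFIIIB had 8 tested genes. Of these, 0 were called higher and 2 lower by limma, beside 11.2% and 11.5% of all genes. At an unadjusted p under 0.05, 2 were higher and 4 lower, beside 1996 and 2257 of all 11754 genes. After median centring 2 were called higher and 0 lower, beside 27.3% and 4.65%, so no direction can be given for the list. Rbl1 and Rbl2 encode relatives of the retinoblastoma protein, which bind TFIIIB. Rbl1 was at -0.51 (adjusted p = 0.045), with 3920 to 4420 in MYC- and 2392 to 3696 in MYC+ samples, and Rbl2 at -0.97 (adjusted p = 0.038), with 205 to 391 and 109 to 276. After median centring neither was called (-0.07 and -0.53, with adjusted p = 0.80 and 0.19), and Rbl2 was at -0.62 and not called after quantile normalization (0.11). Each was called in 3 of 12 alternatives, with adjusted p between 0.010 and 0.80 for Rbl1 and between 0.0155 and 0.19 for Rbl2. Both calls ended without pair 1 and without pair 2, that of Rbl2 also without pair 3 (0.12) and that of Rbl1 without pair 4 (0.053).

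The genes whose levels over the 8 arrays were most like the mean of the standardised levels of the 8 genes without Maf1 were Supt3 (Pearson's r = 0.975), Atf6 (0.974) and Bcl2 (0.973). Those most like Maf1 were Tmem268 (0.974), Zfp128 (0.951) and Ctdsp1 (0.945). These are the highest values among 11754 genes over 8 arrays that share pairs, sort gates and array scaling, and they are given as a description.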

How the data were processed

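RNA of sorted GC B cells from 4 MYC+ and 4 MYC- samples (5 to 20 ng total) was amplified, labelled and hybridised to Affymetrix mouse arrays, per the labels' protocols. The authors deposited 1 linear signal intensity for each probe set, made with MAS5, per the submitters' processing notes. No source used here gives a MAS5 version or scaling target. The number of arrays limits the precision.

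Signals under 1 were set to 1 and log2 was taken. Of 45056 probe sets 19 were controls. Of the others 34945 had 1 gene symbol in the platform annotation, 932 several and 9160 none. The filter kept probe sets with a mean log2 signal past the 40th percentile (a signal of 18.7), and the one with the highest mean stood for each of 11754 genes. Group and pair (as a block) were the terms of a limma 3.58.1 model (R 4.3.3) with 3 residual degrees of freedom and a prior variance that follows intensity. Benjamini-Hochberg adjustment covered all genes tested. Differences are MYC+ minus MYC-. The procedure was tested on simulated data, with 50 genes changed by each of 4 amounts. It recovered 46% at a log2 change of -1, 56% at 1, 74% at -2 and 94% at 2, with 9 false calls. A gene that was not called can therefore still differ.

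Pairs are those the sample descriptions name. Paired samples' deviations from their group means correlated at 0.26, 0.17, 0.088 and 0.12. Probe sets with the suffix s or x can match several transcripts. Members, gene lists and tests were chosen with earlier results of these data known. Named genes are the 9 members, Polr3gl, Bdp1, every called gene of a pathway list where 5 or fewer were called, otherwise the 3 largest, and the 3 genes most like the members and Maf1. Others named with a value (Polr3c, Crcp, Polr1d, Snapc3, Rpp30, Pop1 and the marker genes) were chosen after their values were seen. Alternatives changed the scaling, floor, filter, probe set choice, block, trend and pairs included. Of 55 pathway genes 8 were not analysed here.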

Additional observations from a re-analysis of the deposited data

Results flagged for a closer look

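Dixon's test for a sample that lies apart from the other 3 of its group was made in 51 sets of 4 values (the signals in each group of the named genes, apart from those named for a likeness to the members or Maf1, and the pair differences of the 9 members), where chance gives about 1 in 20. It found 5. Polr3a had a signal of 569.6 in the MYC- sample of pair 4, below the 923 to 955 of the other MYC- samples. Polr3b had 447.9 in the MYC+ sample of pair 3, below 909 to 965. Polr3d had 160.4 in the MYC+ sample of pair 3, below 243 to 257. Polr2h had 941.2 in the MYC- sample of pair 1, below 1347 to 1413. Pop5 had 1226 in the MYC- sample of pair 4, above 965 to 993.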

How the results depend on the processing

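The pairs included and the scaling moved the counts most. Without 1 pair at a time, the genes called higher ran from 403 to 1742 and lower from 352 to 2036, the 8 members other than Maf1 from 0 to 3 higher and from 0 to 1 lower, and the other pathway genes from 5 to 20 higher and from 0 to 2 lower. Fits without a pair have fewer samples. Maf1 ran from -0.35 to -0.0022, the mean of the 8 minus Maf1 from 0.34 to 0.73 and Polr3g minus Polr3gl from 1.36 to 2.32. Polr3a ran from -0.12 (without pair 2) to 0.093, and Polr3b from -0.12, Brf1 from -0.075 and Bdp1 from 0.0099 (all without pair 4) to 0.65, 0.36 and -0.46. After median centring 3204 genes were higher and 546 lower (85.4% of calls higher, against 49.4% as deposited and 57.2% after quantile normalization), 0 members were lower, 27 pathway genes were higher and 0 lower, Maf1 turned to 0.30 and Bdp1 to 0.23. Without the replicate block, 901 genes and 0 pathway genes were lower, and of the members Polr3k alone lost its call. Without the intensity trend 736 genes were higher and 771 lower, with 0 members and 1 pathway gene lower. The count of members lower was also 0 with a floor of 32 and with the mean over probe sets, where Polr3a turned to -0.71 and Polr2e to -0.73. The count of pathway genes lower was 1 after quantile normalization and 0 with a floor of 32, without the filter and with the mean over probe sets. By single probe sets Polr3a turned to -2.37, Polr3b to -0.14 and Polr3f to 0.51. Other than by the construction of the fits without a pair, the cause of these changes was not tested. The number of arrays, 4 a group, limits the precision. The intervals of Polr3a, Polr3b, Polr3g, Brf1 and Maf1 include 0.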
